A study of Mus musculus with 2 samples.

Results

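The genes described here encode the chains of collagens and laminins, together with nidogens, perlecan, agrin and fibronectin. They were taken from the deposited gene lists by symbol: Col followed by a number, the letter a and a number, or Lama, Lamb or Lamc followed by a number, plus Nid1, Nid2, Hspg2 (perlecan), Agrn and Fn1. This gave 60 genes of 32285 counted features, of which 44 encode collagen chains, 11 encode laminin chains and 5 encode the other proteins. The cells came from whole brain of mice at postnatal day 10, strain C57BL/J by the labels, which name no treatment and no engineered allele. The series has 1 group of 2 libraries, numbered 1 and 2, made with the Chromium 3' v3 kit of 10x Genomics. It names 6 mice and ties none of them to a library, so p-values measure only the spread between these 2 libraries, which may be technical. The comparisons are between classes of cells within the libraries, and ask which class makes which chain.

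Collagen chains wind in sets of 3 into helices. Collagens I, III and V form fibrils, collagen IV forms the sheet-like network of basement membranes, and collagen VI forms beaded filaments. Laminins are made of an alpha, a beta and a gamma chain, and nidogens and perlecan link the laminin and collagen IV networks. In the brain, basement membranes surround blood vessels and lie beneath the meninges, where endothelial cells, mural cells (pericytes and smooth muscle cells), fibroblasts and astrocyte endfeet meet.

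Library 1 held 12978 barcodes with 51452085 UMIs (unique molecular identifiers, which count captured molecules), and library 2 held 19508 barcodes with 45532691 UMIs. Filters kept 11992 cells of library 1 and 14121 of library 2, whose median depth was 3426 UMIs in the first and 1910.0 UMIs in the second. The libraries shared 90 barcode sequences, 68 of them among kept cells. Clustering without the 60 genes gave 29 clusters, of which 6 stayed unnamed and enter no comparison. The unnamed clusters held 972 cells (8.1%) of library 1 and 5344 cells (37.8%) of library 2. Among them, clusters with 2366 and 2458 cells of library 2 had low UMI counts and scored highest for microglia markers. The fibroblast-like class had 55 and 8 cells in libraries 1 and 2, the pericyte-like class 531 and 69 and the endothelial-like class 111 and 136. In the fibroblast-like class the 12 fibroblast markers summed to 5233 and 5375 CPM (UMIs scaled to a total of 1000000 per class and library), the 11 pericyte markers to 2944 and 3689 CPM and the 12 astrocyte markers to 1765 and 1458 CPM. Of these, 11 and 10 fibroblast, 4 and 4 pericyte and 9 and 4 astrocyte markers reached 20 CPM. The 10 microglia markers summed to 125 and 843 CPM there. The 10 border macrophage markers were all at 0 there in library 1 and summed to 1335 CPM in library 2, with 5 of them at 0. The pericyte-like class also held smooth muscle markers, at 8389 and 8071 CPM over 10 genes, beside 23448 and 25265 CPM of the 11 pericyte markers and 1038 and 1205 CPM of the 12 fibroblast markers. The 12 endothelial markers summed to 8641 and 8272 CPM in endothelial-like cells, where 8 erythroid markers summed to 3179 and 1353 CPM. The 9 ependymal markers summed to 10628 and 9993 CPM in ependymal-like cells, where the erythroid markers summed to 101 and 6512 CPM. The part of these other markers in the results was not tested. A cluster led by Ttr, a gene known from choroid plexus epithelium, carried both choroid plexus epithelial markers (7865 and 1027 CPM over 10 genes, 3 of them at 0 in library 2) and astrocyte markers (6704 and 6398 CPM over 12 genes), and is called by its leading gene. In it 5 and 2 of the 10 choroid plexus epithelial markers reached 20 CPM, against 11 and 11 of the 12 astrocyte markers.

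Levels are in CPM, given for library 1 and then library 2. With 3' tagging a molecule is counted once whatever its length, so the CPM of different chains was set side by side without division by gene length. A class was taken to make a chain at 20 CPM or more in both libraries. By that limit 43 of the 60 genes were made by at least 1 of the 15 classes compared, and 39 of these had the same highest class in both libraries. The highest class was fibroblast-like for 23 genes, pericyte-like for 9, endothelial-like for 3 and another class for 8. For 14 genes 1 class alone reached the limit. Together the 60 genes made up 14369.8 and 17672 CPM in fibroblast-like cells, 7642 and 8128 CPM in pericyte-like cells and 3065 and 3199 CPM in endothelial-like cells. Of the other classes, differentiating oligodendrocyte-like cells had the highest sum, 1054 and 897 CPM, and border macrophage-like cells had 72.1 and 86.4 CPM. Fibroblast-like cells made 33 of the genes, pericyte-like cells 21, ependymal-like cells 15, endothelial-like cells 12 and the Ttr-led cluster 10. The other classes made between 0 and 6.

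**Figure D1:**
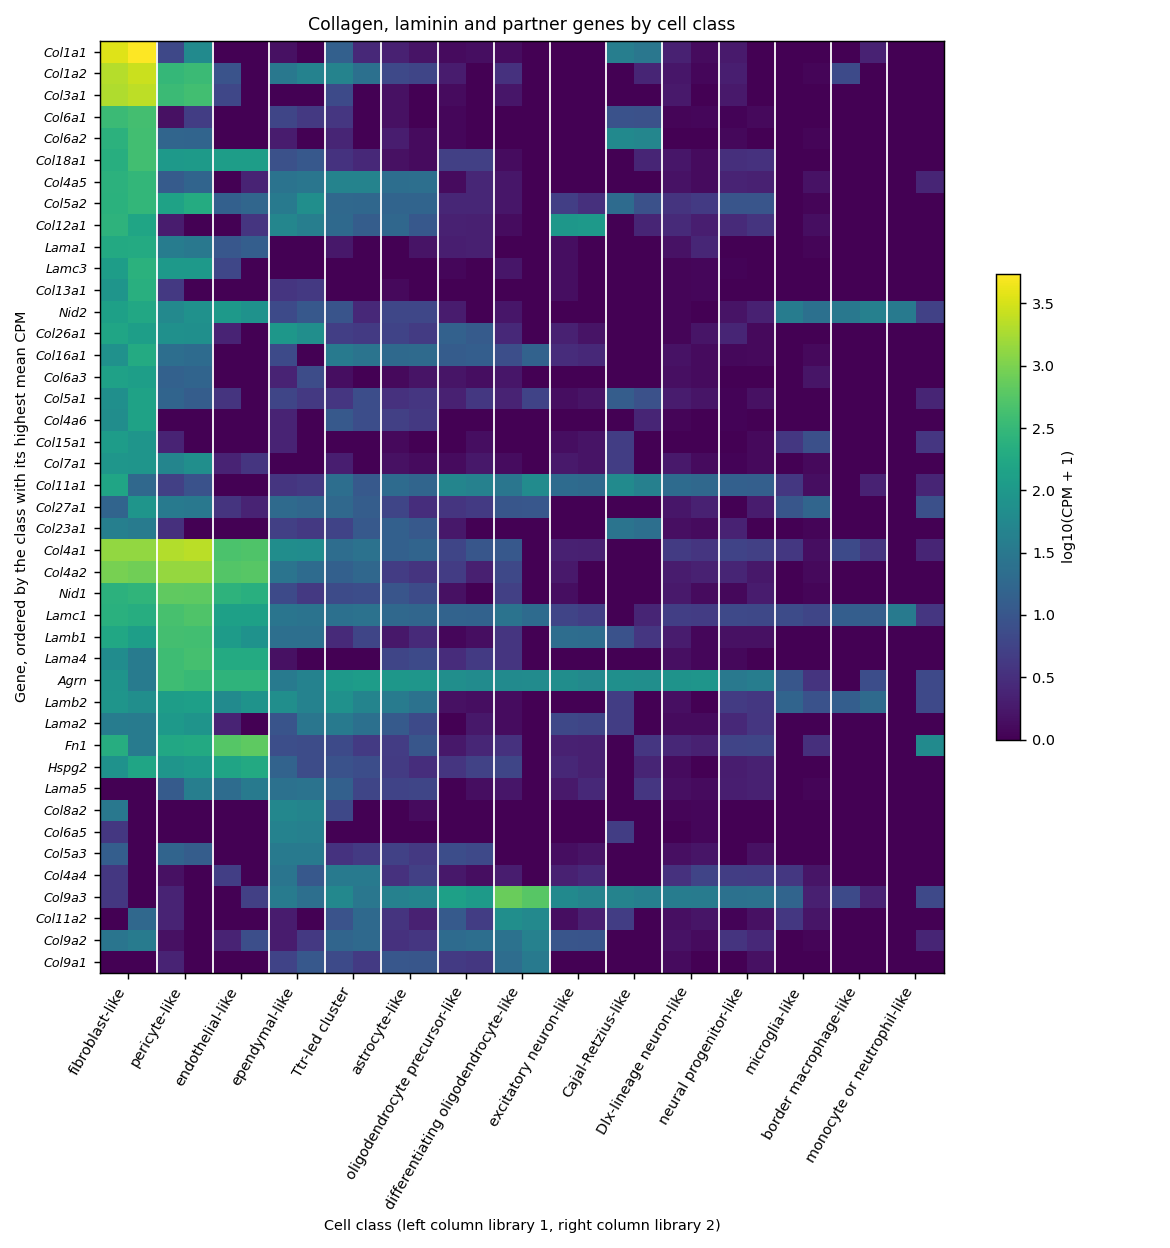
Heat map of log10(CPM + 1) for the 43 genes made by at least 1 class, with a row per gene and a pair of columns per class (library 1 left, library 2 right). Col1a1, Col1a2 and Col3a1 are brightest in fibroblast-like cells. Col4a1 and Col4a2 are bright in fibroblast-like, pericyte-like and endothelial-like cells, and Col9a3 is bright in differentiating oligodendrocyte-like cells.

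Upstream sequence is shown for 5 genes that differ in where their levels were high: Col3a1, Col13a1 and Col4a6, highest in fibroblast-like cells, Col6a5, highest in ependymal-like cells, and Lama5, which was higher in smooth muscle-like than in pericyte-like cells. Col4a6 and Lama5 also had UMIs in other classes, Col4a6 at 10.2 and 6.64 CPM in the Ttr-led cluster and 4.13 and 3.25 CPM in astrocyte-like cells, and Lama5 at 19.9 and 34.1 CPM in endothelial-like, 23.5 and 25.6 CPM in ependymal-like and 13.1 and 4.98 CPM in Ttr-led cells. Each sequence is the 250 bases before the start site from RefSeq on build GRCm38.p6, 5′ to 3′ on the gene's strand. Capitals mark any of 3 motifs on either strand. The GC box was searched as GGGCGG. The TATA box was searched as TATAAA. The third motif was the CCAAT box.

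Col3a1, chr1:45311288-45311537, plus strand: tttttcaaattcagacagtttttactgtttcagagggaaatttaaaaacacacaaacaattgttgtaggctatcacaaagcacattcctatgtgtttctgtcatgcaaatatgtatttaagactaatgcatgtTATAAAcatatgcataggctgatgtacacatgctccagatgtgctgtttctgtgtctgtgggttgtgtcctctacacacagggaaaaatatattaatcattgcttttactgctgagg

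Col13a1, chr10:61979109-61979358, minus strand: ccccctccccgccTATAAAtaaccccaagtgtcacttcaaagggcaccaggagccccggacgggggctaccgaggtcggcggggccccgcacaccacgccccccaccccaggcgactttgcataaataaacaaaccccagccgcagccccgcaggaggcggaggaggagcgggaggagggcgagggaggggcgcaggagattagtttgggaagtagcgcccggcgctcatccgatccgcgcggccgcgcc

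Col4a6, chrX:141474077-141474326, minus strand: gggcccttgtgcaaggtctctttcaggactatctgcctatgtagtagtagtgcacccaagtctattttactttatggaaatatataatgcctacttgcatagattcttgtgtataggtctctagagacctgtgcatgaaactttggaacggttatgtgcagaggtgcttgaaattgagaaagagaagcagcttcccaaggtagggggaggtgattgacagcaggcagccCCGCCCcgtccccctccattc

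Lama5, chr2:180225860-180226109, minus strand: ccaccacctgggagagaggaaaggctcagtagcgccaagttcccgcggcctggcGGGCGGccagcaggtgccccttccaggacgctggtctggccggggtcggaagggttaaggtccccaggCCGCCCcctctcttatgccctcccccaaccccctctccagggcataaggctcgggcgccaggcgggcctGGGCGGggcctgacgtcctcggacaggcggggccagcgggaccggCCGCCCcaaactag

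Col6a5, chr9:105960644-105960893, minus strand: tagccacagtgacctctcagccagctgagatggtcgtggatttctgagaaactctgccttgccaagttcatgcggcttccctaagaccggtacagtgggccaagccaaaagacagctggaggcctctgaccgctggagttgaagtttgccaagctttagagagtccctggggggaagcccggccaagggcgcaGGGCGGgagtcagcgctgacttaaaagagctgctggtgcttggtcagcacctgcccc

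The windows of Col3a1 and Col13a1 held 1 TATA box each and no GC box, that of Lama5 held 4 GC boxes, and those of Col4a6 and Col6a5 held 1 GC box each. None of these 5 windows held a CCAAT box. Of 32851 RefSeq windows of the same length, 32.7% held a GC box, 33.8% a CCAAT box and 12.4% a TATA box, so these matches are common and are given as a description.

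Fibroblast-like cells made the chains of collagens I and III, and Col5a1 and Col5a2 of collagen V, at the highest levels. Col1a1, which joins Col1a2 in collagen I, was at 3561 and 5481 CPM there, Col1a2 at 2109 and 2740.3 CPM, and Col3a1, the sole chain of collagen III, at 1984 and 2319 CPM. These collagen V chains were lower, with Col5a2 at 243 and 299 CPM and Col5a1 at 72.9 and 141 CPM, while Col5a3 was highest in ependymal-like cells. Collagen VI came from Col6a1 (352 and 422 CPM), Col6a2 (252 and 404 CPM) and Col6a3 (137 and 123 CPM). Col6a1 was at most 7.68 CPM in a library of any other of the 15 classes. Col13a1, a transmembrane collagen, was at 88.1 and 228 CPM in fibroblast-like cells and at most 3.20 CPM in the others of these classes. Col15a1, a collagen of basement membrane zones, was at 115 and 87.8 CPM, against at most 7.12 CPM in the others of these classes. These limits do not cover the smooth muscle-like cells of a finer clustering described below. Those cells had Col6a1 at 0 and 21.5 CPM, Col13a1 at 17.3 and 0 CPM and Col15a1 at 8.63 and 0 CPM, from at most 6 UMIs each. Some chains varied more between the libraries: Col11a1 was at 155 and 17.6 CPM and Fn1 at 216 and 35.1 CPM. Library 2 rested on 8 cells and 56927 UMIs here.

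Of the 47 genes that passed the filter on low counts, 35 were higher in fibroblast-like cells than in the mean of the other classes and 0 were lower, against 6.05% higher and 0.804% lower of all 13067 genes tested with edgeR. DESeq2 gave 32 higher and 0 lower, against 6.02% and 0.551% of all genes by its own calls, and edgeR gave 1 lower at an unadjusted p under 0.05. Of the 35 genes, 32 were at 20 CPM or more in both libraries. The edgeR adjusted p was 1.5e-68 for Col1a1, 2.9e-61 for Col3a1, 2.9e-63 for Col1a2, 2.4e-39 for Col6a1 and 1.3e-23 for Col13a1. With DESeq2 the call was lost for Col13a1 (adjusted p = 0.448) and Lamc3 (adjusted p = 0.193). Many other classes had no UMI of these chains, so fitted fold changes against them depend on the prior count, and levels are given in their place.

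Pericyte-like cells made the main basement membrane chains at the highest levels of all classes. Col4a1 was at 2041 and 2226 CPM and Col4a2 at 1381 and 1381 CPM. Nid1, which links laminin to collagen IV, was at 661 and 654 CPM. The laminin chains Lamc1 (441 and 509 CPM), Lamb1 (419 and 402 CPM) and Lama4 (377 and 432 CPM) followed, with Agrn, a heparan sulphate proteoglycan, at 381 and 333 CPM. Each of these 7 genes was higher in pericyte-like than in fibroblast-like and endothelial-like cells in both libraries. A UMI of Col4a1 was found in 527 of 531 and 69 of 69 pericyte-like cells. With each cell thinned to 1500 UMIs the shares were 91.1% (95% exact interval 88.2 to 93.4) and 93.8% (84.99 to 98.3). Neural progenitor-like cells, taken as a class that should lack the gene, gave 0.619% and 0.569% after the same thinning, at median depths of 4892 and 4183 UMIs, against 3889 and 3674 UMIs in pericyte-like cells. Intervals and the limits given for counts of 0 cover counting error only.

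The same class made part of the fibrillar set. Col3a1 was at 357 and 409 CPM and Col1a2 at 313 and 352 CPM, while Col1a1 was at 5.42 and 61.2 CPM. The ratio of Col1a1 to Col1a2 UMIs was 0.0173 and 0.174 in pericyte-like cells, against 1.69 and 2 in fibroblast-like cells. In the finer clustering described below for smooth muscle-like cells, Col1a1 had 0 and 11 UMIs in smooth muscle-like and 12 and 5 UMIs in pericyte-like cells, so in library 2 most of them lay in 11 cells. A UMI of Col1a1 was found in 8 of 531 and 5 of 69 pericyte-like cells, next to 346 of 531 and 44 of 69 for Col1a2 and 333 of 531 and 38 of 69 for Col3a1. Thinned to 1500 UMIs, the share with Col1a1 was 0.778% (95% exact interval 0.212 to 1.98) and 3.08% (0.375 to 10.7), next to 0.155% and 0% in neural progenitor-like cells. Pericyte-like cells with Col1a2 had Col3a1 in 65.9% and 63.6% of cases, against 62.7% and 55.1% of all pericyte-like cells.

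Against the mean of the other classes, 31 of the 47 genes were higher in pericyte-like cells and 1 was lower, where all tested genes gave 14.6% higher and 5.98% lower, and 3 of the higher ones had a lower mean CPM than the arithmetic mean of the other classes. DESeq2 gave 27 higher and 1 lower, against 13.5% and 8.07% of all genes by its own calls. The lower gene was Col9a3, at 1.35 and 0 CPM (edgeR adjusted p = 2.8e-06). The edgeR adjusted p was 7.4e-63 for Nid1, 6.1e-63 for Col4a1, 1.5e-56 for Lama4 and 2.5e-52 for Col3a1; DESeq2 gave Col3a1 an adjusted p of 0.0529. Col7a1, the collagen of anchoring fibrils, was at 49.7 and 68.9 CPM here and 91.2 and 87.8 CPM in fibroblast-like cells. Lamc3, a gamma chain, was at 106 and 99.5 CPM here and 119 and 246 CPM in fibroblast-like cells, and at most 5.30 CPM elsewhere.

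A finer clustering, chosen after the data were seen, gave smooth muscle-like cells (67 and 11 cells) apart from pericyte-like cells (532 and 58 cells). The coarser pericyte-like class had 531 and 69 cells, so in library 1 other cells joined the finer classes. In the finer pericyte-like class Col9a3 had 53 and 0 UMIs (24.7 and 0 CPM), more in library 1 than in the coarser class. The part of these added cells in the comparison below was not tested. Lama5, a laminin alpha chain, was at 69.1 and 215 CPM in smooth muscle-like cells, against 0.467 and 0 CPM in pericyte-like cells (edgeR adjusted p = 1.1e-11). Col18a1, the source of endostatin, was at 354 and 301 CPM in smooth muscle-like cells, against 57.0 and 65.1 CPM in pericyte-like cells (log2 fold change 2.62 ± 0.22 SE, edgeR adjusted p = 8.5e-15). Col8a1, a short-chain collagen, was at 153 and 64.5 CPM in smooth muscle-like cells, against 9.34 and 4.65 CPM in pericyte-like cells (4.06 ± 0.49 SE, edgeR adjusted p = 5.9e-09). It reached 20 CPM in both libraries of no class of the coarser clustering. Col1a2 was at 564 and 796 CPM in smooth muscle-like and 238 and 256 CPM in pericyte-like cells, and Col16a1 at 54.7 and 64.5 CPM in smooth muscle-like and 14.5 and 9.31 CPM in pericyte-like cells. In all, 5 of the 47 genes tested were higher in smooth muscle-like cells and 7 were lower, against 1.97% higher and 2.35% lower of the 12161 genes tested there.

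The 7 lower genes were the laminin chains Lama4, Lamb1 and Lama2 with Nid1, Hspg2, Col5a2 and Col7a1. Lama4 was at 161 and 172 CPM in smooth muscle-like cells, against 369.8 and 489 CPM in pericyte-like cells (-1.22 ± 0.22 SE, edgeR adjusted p = 4.7e-05). Nid1 was at 285 and 129 CPM in smooth muscle-like cells, against 652 and 768 CPM in pericyte-like cells (-1.35 ± 0.19 SE, with log2(CPM + 1) differences of -1.19 and -2.56 in the libraries, edgeR adjusted p = 2.4e-07). Col7a1 was at 2.88 and 0 CPM in smooth muscle-like cells and 51.4 and 83.8 CPM in pericyte-like cells.

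**Figure D2:**
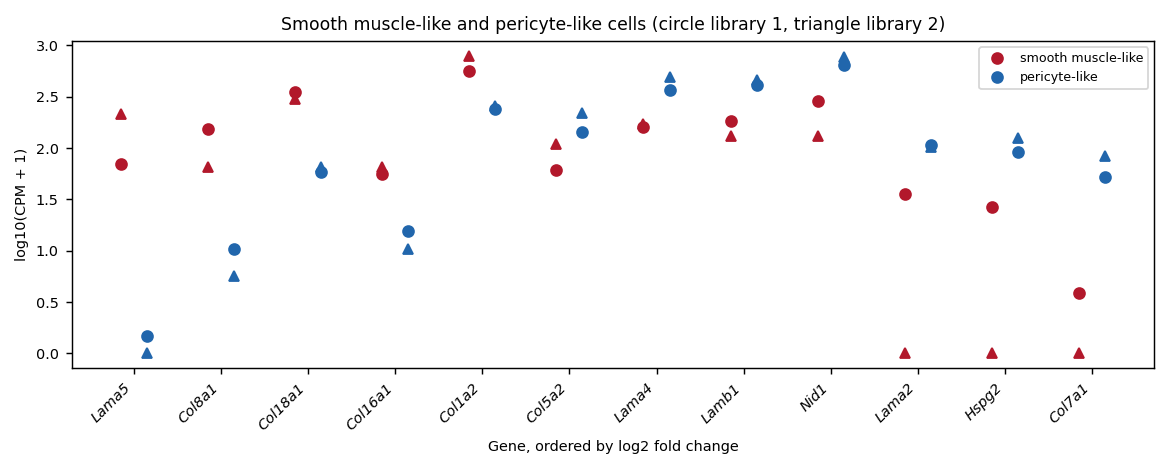
Levels as log10(CPM + 1) of the 12 genes that differed between smooth muscle-like (red, left) and pericyte-like cells (blue, right), with circles for library 1 and triangles for library 2. The 5 genes on the left are higher in smooth muscle-like cells, led by Lama5, and the 7 on the right are lower, with Col7a1 last.

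Endothelial-like cells made Fn1 and Hspg2 at high levels. Fn1, fibronectin, was at 559 and 644 CPM, the highest of all classes in both libraries, with 172 and 187 CPM in pericyte-like cells. Hspg2, perlecan, was at 151 and 185 CPM, with 79.0 and 158 CPM in fibroblast-like and 87.6 and 103 CPM in pericyte-like cells. Col4a2 (548 and 578 CPM) and Col4a1 (474 and 505 CPM) were the main collagen chains. Agrn was at 265 and 271 CPM, Nid1 at 258 and 228 CPM and Lama4 at 195 and 191 CPM. Col4a3, which forms another collagen IV network with Col4a4 and Col4a5, stayed below the limit at 15.9 and 13.6 CPM. Col1a1 had 0 UMIs in endothelial-like cells, which allows up to 3.97 and 4.09 CPM.

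Against the mean of the other classes, 16 of 47 genes were higher in endothelial-like cells and 2 were lower, where all tested genes gave 14.4% higher and 7.22% lower, and 2 of the higher ones had a lower arithmetic mean CPM. DESeq2 gave 15 higher and 2 lower, against 13.7% and 7.67% of all genes by its own calls. All 12 genes made by the class were among the higher ones, and Col9a3 and Col11a1 were the lower ones. The edgeR adjusted p was 9.0e-58 for Fn1, 8.1e-52 for Col4a2, 1.4e-47 for Nid1 and 2.9e-45 for Lama4. The call of Col4a3 was lost with DESeq2 (adjusted p = 0.102), and that of Col11a1 under stricter quality limits.

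**Figure D3:**
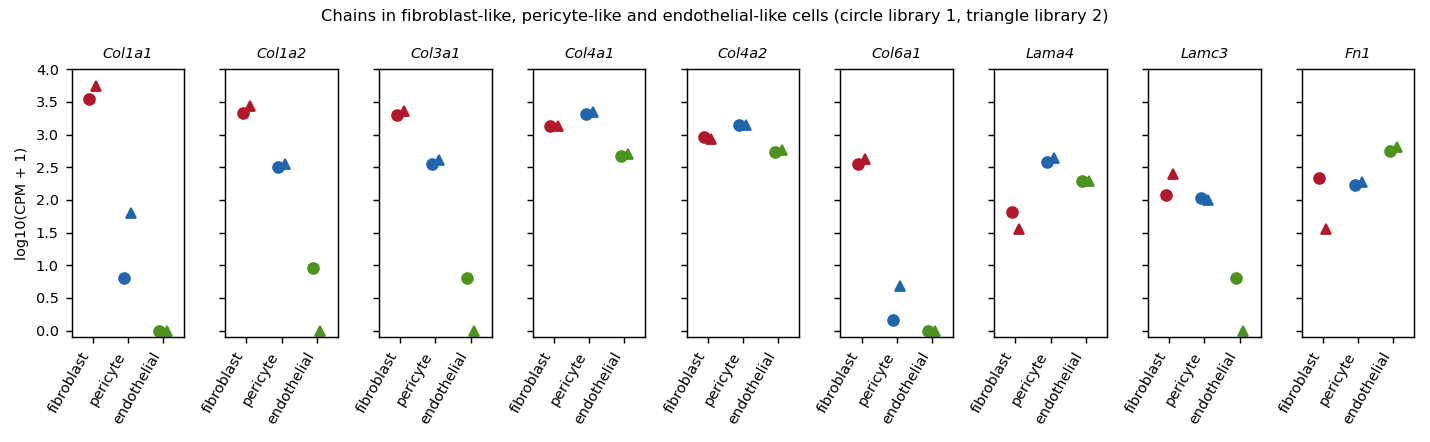
Levels as log10(CPM + 1) of 9 chains in fibroblast-like, pericyte-like and endothelial-like cells, with circles for library 1 and triangles for library 2. Col1a1 and Col6a1 are far lower outside fibroblast-like cells, Col1a2, Col3a1 and Lamc3 are also high in pericyte-like cells, and Fn1 is highest in endothelial-like cells.

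Set directly against each other, pericyte-like cells had 24 of the 47 genes higher and 3 lower than endothelial-like cells, against 10% higher and 9.13% lower of all genes tested; DESeq2 gave 17 higher and 0 lower, against 7.94% and 8.07% of all genes by its own calls. Col4a1 was higher in pericyte-like cells by 1.96 ± 0.22 (log2, SE, edgeR adjusted p = 2.4e-12) and Col4a2 by 1.12 ± 0.21 (edgeR adjusted p = 9.4e-06). Lamb1 (1.93 ± 0.17), Lamc1 (1.63 ± 0.15) and Nid1 (1.26 ± 0.14) were higher as well. Fn1 was lower in pericyte-like cells, with a log2 fold change of -1.89 ± 0.16 SE (edgeR adjusted p = 9.6e-17; DESeq2 adjusted p = 0.0501), as were Col4a3 and Col9a2. Lama2 was at 104 and 84.2 CPM in pericyte-like cells, against 1.32 and 0 CPM in endothelial-like cells. Col3a1 was at 357 and 409 CPM in pericyte-like cells, against 5.30 and 0 CPM in endothelial-like cells, and lost its call with DESeq2 (adjusted p = 0.341).

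Fibroblast-like cells had 19 genes higher and 7 lower than pericyte-like cells, against 3.37% higher and 5.04% lower of all genes tested; DESeq2 gave 14 higher and 4 lower, against 3.1% and 3.82% of all genes by its own calls. Col1a1 was higher by 8.26 ± 0.26 (log2, SE, edgeR adjusted p = 3.8e-42), Col1a2 by 2.71 ± 0.16 (edgeR adjusted p = 1.5e-24) and Col3a1 by 2.37 ± 0.16 (edgeR adjusted p = 5.3e-21). For Col1a1 the libraries gave different sizes, with log2(CPM + 1) differences of 9.12 and 6.46. Lama1, a laminin alpha chain, was at 188 and 193 CPM in fibroblast-like cells, against 35.7 and 30.6 CPM in pericyte-like cells (log2 fold change 2.33 ± 0.35 SE, edgeR adjusted p = 1.8e-07). Lama4 was at 63.8 and 35.1 CPM in fibroblast-like cells, against 377 and 432 CPM in pericyte-like cells (log2 fold change -2.80 ± 0.27 SE, with log2(CPM + 1) differences of -2.54 and -3.58, edgeR adjusted p = 3.1e-13). Agrn, Lama2, Lama5, Lamb1, Lamc1 and Nid1 were also lower. The Lama5 UMIs of pericyte-like cells lay almost wholly in the smooth muscle-like cells of the finer clustering, with 24 and 10 UMIs there and 1 and 0 in its pericyte-like cells. Against endothelial-like cells, fibroblast-like cells had 25 genes higher and 6 lower, where all genes gave 5.27% and 7.21%; DESeq2 gave 19 higher and 4 lower, against 4.66% and 5.96% of all genes by its own calls. The lower ones by edgeR were Agrn, Col4a3, Fn1, Hspg2, Lama4 and Lama5.

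The collagen IV chains came in different proportions. The ratio of Col4a1 to Col4a2 UMIs was 1.48 and 1.61 in pericyte-like, 1.44 and 1.60 in fibroblast-like and 0.865 and 0.873 in endothelial-like cells. Their genes lie head to head on chromosome 8 of build mm10, Col4a1 from 11198423 to 11312826 on the minus strand and Col4a2 from 11312805 to 11449287 on the plus strand, with start sites 21 bases apart. Of pericyte-like cells with Col4a1, 98.1% and 95.7% also had Col4a2, as did 93.9% and 90.9% of endothelial-like cells with Col4a1.

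Col4a5 and Col4a6 form another head-to-head pair, on chromosome X with RefSeq start sites 1343 bases apart, and the Col4a6 sequence shown above lies between them. Both were highest in fibroblast-like cells, Col4a5 at 249.2 and 299 CPM and Col4a6 at 66.9 and 141 CPM. Pericyte-like cells had Col4a5 at 10.8 and 15.3 CPM and 0 UMIs of Col4a6, which allows up to 1.35 and 11.5 CPM. Col4a5 made up 37.0% and 36.4% of collagen IV UMIs in the Ttr-led cluster and 48.4% and 47.2% in astrocyte-like cells, next to 9.65% and 11.3% in fibroblast-like and 0.316% and 0.422% in pericyte-like cells. Col4a4 made up 26.8% and 26.0% in the Ttr-led cluster, at 33.6 and 33.2 CPM, where Col4a3 was at 1.095 and 0 CPM.

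Laminin chains also came in different proportions. Lama4 made up 86.5% and 79.5% of alpha chain UMIs in endothelial-like cells and 71.4% and 73.9% in pericyte-like cells. Lama2 was next in pericyte-like cells with 19.8% and 14.4%, and Lama5 in endothelial-like cells with 8.82% and 14.2%. In ependymal-like cells Lama5 held 58.6% and 34.8% and Lama2 20.7% and 39.1%, so their order differed between the libraries. Lamb1 made up 77.7% and 75.5% of beta chain UMIs in pericyte-like cells and 64.8% and 48.7% in endothelial-like cells, where the libraries differed in which beta chain was higher. Lamb2 held 97.2% and 90.6% in the Ttr-led cluster, 97.3% and 92.3% in astrocyte-like and 72.2% and 63.6% in ependymal-like cells. Excitatory neuron-like cells had 20.7 and 19.8 CPM of Lamb1 and 0 and 0 CPM of Lamb2. Among gamma chains Lamc3 held 33.6% and 53.8% in fibroblast-like and 19.3% and 16.4% in pericyte-like cells, and Lamc1 held 96.2% and 100% in endothelial-like cells. The ratio of Nid1 to Nid2 was 11.5 and 8.55 in pericyte-like, 2.50 and 2.88 in endothelial-like and 1.95 and 1.60 in fibroblast-like cells. These proportions are descriptions, and their differences between classes were not tested.

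**Figure D4:**
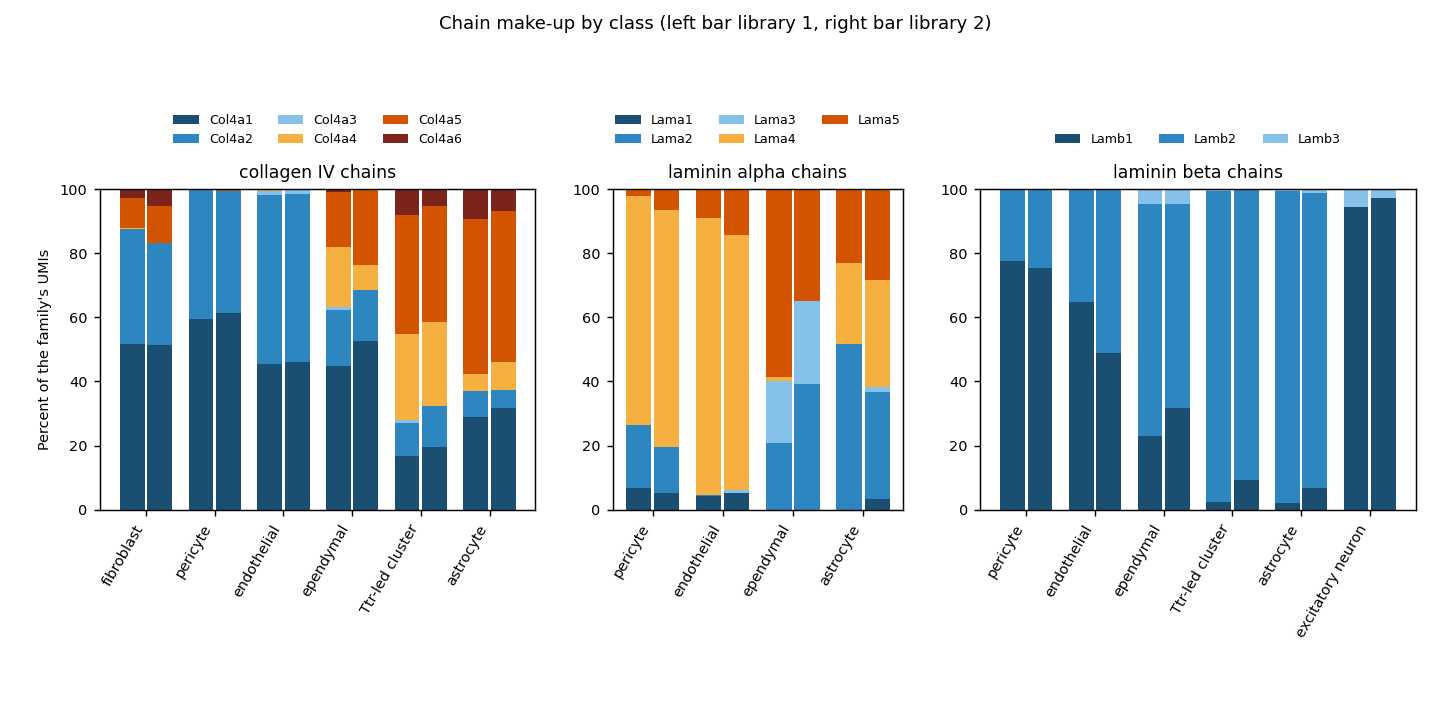
Percent of UMIs within the collagen IV, laminin alpha and laminin beta genes by class (left bar library 1, right bar library 2), for classes with at least 20 UMIs of the family in each library. Col4a1 and Col4a2 fill nearly all of the pericyte and endothelial bars, Lama4 fills most of the vascular alpha chain bars, and Lamb2 fills most of the Ttr-led and astrocyte bars.

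Ependymal-like cells, which line the ventricles, made 15 chains at low levels. Col26a1 was at 93.1 and 70.5 CPM, and at 158 and 123 CPM in fibroblast-like and 75.4 and 72.7 CPM in pericyte-like cells. Col8a2, a short-chain collagen, was at 53.0 and 48.1 CPM. Col6a5, which can stand in for Col6a3 in collagen VI, was at 44.2 and 41.7 CPM, with Col6a1 at 5.07 and 3.20 CPM and Col6a2 at 0.921 and 0 CPM in the same cells. Col5a3, a collagen V chain, was at 33.2 and 32.0 CPM. Of 47 genes 25 were higher and 0 lower than the mean of the other classes, against 27.4% and 7.69% of all genes; DESeq2 gave 18 higher and 1 lower, against 23.2% and 10.2% of all genes by its own calls, and edgeR 1 lower at an unadjusted p under 0.05. Of these 25 genes, 11 had a lower mean CPM than the arithmetic mean of the other classes, since the test averages log values while a few classes with high levels set the arithmetic mean. The edgeR adjusted p was 1.3e-27 for Col6a5 and 4.8e-28 for Col8a2, and DESeq2 lost both calls (adjusted p = 0.229 and 0.319). Col26a1 overlaps Gm20485 on the same strand, so its count is uncertain.

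In the Ttr-led cluster 23 genes were higher and 0 lower, against 20.9% and 3.91% of all genes tested, and 9 of the higher ones had a lower arithmetic mean CPM; DESeq2 gave 18 higher and 1 lower, against 17.9% and 5.06% of all genes by its own calls, and edgeR 0 lower at an unadjusted p under 0.05. Agrn was at 105 and 116 CPM, Lamb2 at 75.9 and 48.1 CPM, Col4a5 at 46.4 and 46.4 CPM and Lama2 at 32.9 and 23.2 CPM. Col4a4 was higher here than in any other class (edgeR adjusted p = 1.1e-20 against their mean). In astrocyte-like cells 17 genes were higher and 0 lower, against 15.8% and 3.05%, but 13 of the 17 had a lower arithmetic mean CPM; DESeq2 gave 15 higher and 2 lower, against 14.2% and 5.17% of all genes by its own calls, and edgeR 0 lower at an unadjusted p under 0.05. The 4 chains made were Agrn (94.2 and 90.3 CPM), Col9a3 (42.7 and 47.5 CPM), Lamb2 (35.2 and 24.8 CPM) and Col4a5 (21.6 and 22.4 CPM). Directly against endothelial-like cells, astrocyte-like cells had 11 genes higher and 15 lower, where all genes gave 17.5% and 14%; DESeq2 gave 9 higher and 14 lower, against 15.8% and 12.8% of all genes by its own calls. Lamb2 (log2 fold change -1.47 ± 0.22 SE, with log2(CPM + 1) differences of -0.74 and -1.71) and Agrn (-1.76 ± 0.15 SE) were among the lower genes and Col4a5 among the higher.

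Differentiating oligodendrocyte-like cells carried chains best known from cartilage. Col9a3, a chain of the fibril-associated collagen IX, was at 754 and 588 CPM. It was at 133 and 106 CPM in oligodendrocyte precursor-like cells and at most 58.5 CPM in any other class. A UMI of it was found in 363 of 394 and 25 of 32 cells of the class, and in 59.7% and 50% after thinning to 1500 UMIs, next to 0% and 0% of pericyte-like cells. Its partner chains Col9a2 (24.8 and 42.7 CPM) and Col9a1 (20.7 and 33.2 CPM) were lower, and Col11a2, a collagen XI chain, was at 68.9 and 56.9 CPM. Of 47 genes 7 were higher and 0 lower than the mean of the other classes, against 12.1% and 7.39% of all genes, and 2 of the higher ones had a lower arithmetic mean CPM; DESeq2 gave 7 higher and 4 lower, against 11.9% and 8.35% of all genes by its own calls, and edgeR 0 lower at an unadjusted p under 0.05. The edgeR adjusted p was 5.7e-56 for Col9a3, 2.1e-29 for Col11a2 and 1.7e-18 for Col9a1. Tcfl5 overlaps Col9a3 on the other strand; the strand setting of the counting was not stated, and without strand their reads cannot be told apart. Such overlaps on the other strand were found for 20 of the 60 genes, among them Col4a1 with Col4a2, Fn1, Nid1, Lama2, Lamc3, Col12a1, Col15a1 and Col18a1.

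In oligodendrocyte precursor-like cells Col11a1 was at 50.004 and 43.6 CPM beside Col9a3 and Agrn (69.3 and 62.9 CPM). Of 47 genes 9 were higher and 0 lower, against 15.9% and 3.33% of all genes, and 4 of the higher ones had a lower arithmetic mean CPM; DESeq2 gave 8 higher and 16 lower, against 13.6% and 7.34% of all genes by its own calls, and edgeR 0 lower at an unadjusted p under 0.05. Agrn reached 20 CPM in both libraries of 12 of the 15 classes.

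Excitatory neuron-like cells made Col12a1, a fibril-associated collagen, at 95.8 and 104 CPM, while Dlx-lineage neuron-like cells had 1.78 and 1.06 CPM. It was at 261 and 158 CPM in fibroblast-like and 51.1 and 38.5 CPM in ependymal-like cells. After thinning, 15.6% and 13.9% of excitatory neuron-like cells had a UMI of it, against 0.289% and 0.117% of Dlx-lineage neuron-like cells; thinned to 1000 UMIs they were 10.3% and 9.21% of excitatory neuron-like and 0.205% and 0.190% of Dlx-lineage neuron-like cells. Of 47 genes 6 were higher in excitatory neuron-like cells and 2 lower, against 17.2% and 9.01% of all genes, and 4 of the 6 had a lower arithmetic mean CPM; DESeq2 gave 6 higher and 16 lower, against 16% and 13.3% of all genes by its own calls. Col12a1 had an edgeR adjusted p of 1.5e-41. Dlx-lineage neuron-like cells had 3 genes higher and 1 lower, against 17.6% and 8.43%, and all 3 of the higher ones had a lower arithmetic mean CPM; DESeq2 gave 4 higher and 25 lower, against 16.1% and 17% of all genes by its own calls. Neural progenitor-like cells had 3 higher and 1 lower, against 15.3% and 5.88%, and 2 of the 3 had a lower arithmetic mean CPM; DESeq2 gave 1 higher and 20 lower, against 13.9% and 11.3% of all genes by its own calls.

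Cajal-Retzius-like cells, neurons of the cortical surface, made Col6a2 at 57.6 and 51.4 CPM, next to Col6a1 at 7.68 and 7.35 CPM and 0 UMIs of Col6a3, which allows up to 11.5 and 4.41 CPM. Col11a1 was at 61.5 and 41.1 CPM. Col1a1 was at 38.4 and 29.4 CPM, with Col1a2 at 0 and 1.47 CPM, and was found in 3 of 37 and 12 of 97 cells. Of 47 genes 7 were higher and 2 lower than the mean of the other classes, against 15.8% and 8.46% of all genes, and 4 of the 7 had a lower arithmetic mean CPM. DESeq2 gave 7 higher and 4 lower, against 15.5% and 7.06% of all genes by its own calls. Col6a2 had an edgeR adjusted p of 2.2e-22, and Col4a1 and Lamc1 were the lower genes.

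**Figure D5:**
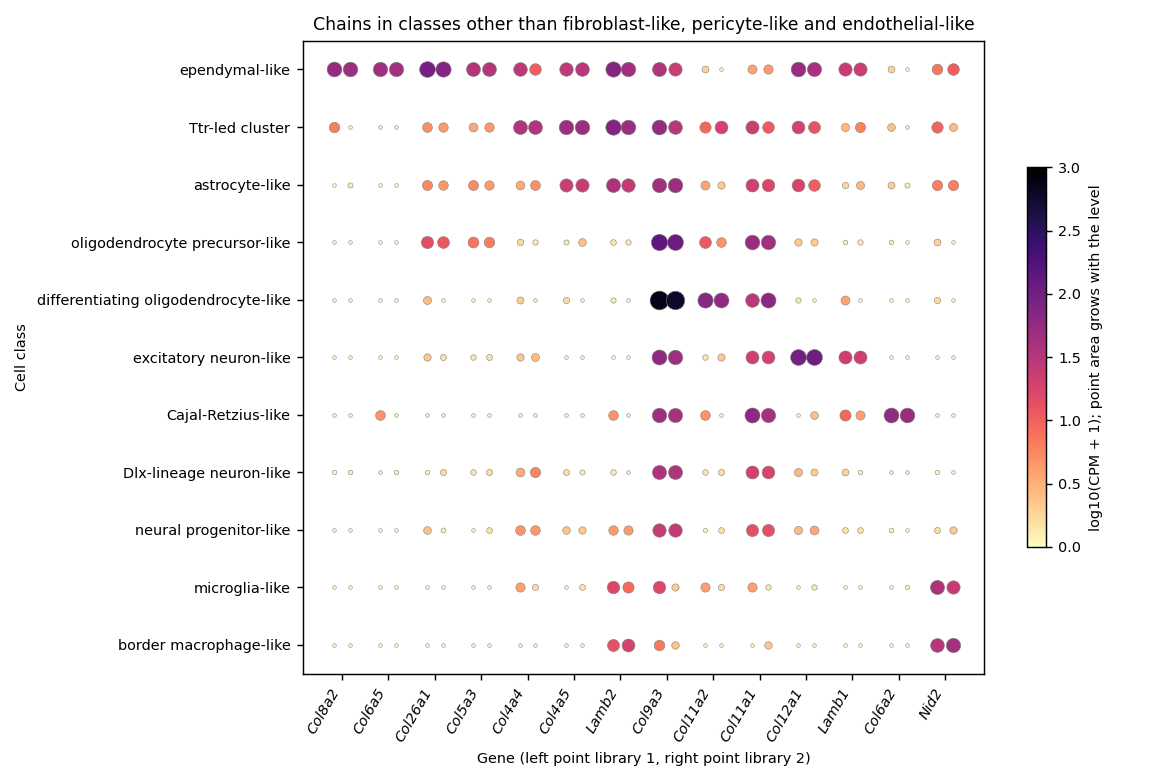
Levels of 14 chains in 11 classes, with darker and larger points for higher log10(CPM + 1) and library 1 left of library 2. Fibroblast-like, pericyte-like, endothelial-like and monocyte or neutrophil-like cells are left out. Col9a3 is darkest in differentiating oligodendrocyte-like cells, Col6a5 and Col8a2 stand out in ependymal-like, Col12a1 in excitatory neuron-like, Col6a2 in Cajal-Retzius-like and Nid2 in microglia-like and border macrophage-like cells.

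Myeloid classes made few of the genes. Nid2, the second nidogen, was at 36.3 and 22.8 CPM in microglia-like and 30.02 and 41.9 CPM in border macrophage-like cells, with 0.137 and 0 CPM in Dlx-lineage neuron-like cells. A UMI of it was found in 9 of 91 and 173 of 1754 microglia-like cells and 1 of 3598 and 0 of 3291 Dlx-lineage neuron-like cells. Thinned to 1500 UMIs, the shares were 6.098% and 4.38% of microglia-like and 0% and 0% of Dlx-lineage neuron-like cells. Against the mean of the other classes its edgeR adjusted p was 2.6e-17 in microglia-like and 1.3e-12 in border macrophage-like cells. Rtraf overlaps Nid2 on the other strand (chromosome 14, 19751265 to 19811787, build mm10), so the Nid2 count carries the limit given for Col9a3. Microglia-like cells had 3 genes higher and 3 lower, against 17.5% and 7.55% of all genes, and 1 of the higher ones had a lower arithmetic mean CPM; DESeq2 gave 2 higher and 23 lower, against 15.3% and 17.6% of all genes by its own calls. Border macrophage-like cells had 2 higher and 3 lower, against 12.9% and 7.59%, and 1 of the higher ones had a lower arithmetic mean CPM. DESeq2 gave 2 higher and 4 lower, against 12.1% and 6.77% of all genes by its own calls. Monocyte or neutrophil-like cells had 0 higher and 1 lower, against 5.75% and 5%, where edgeR had 3 higher at an unadjusted p under 0.05 and DESeq2 gave 0 higher and 1 lower, against 5.56% and 2.98% of all genes by its own calls. Fn1 was at 0 and 60.3 CPM there, in 14 and 302 cells.

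Genes that act on these chains were taken from 4 further lists. Their counts against the mean of the other classes stand beside 6.05% higher and 0.804% lower of all genes tested in fibroblast-like cells, 14.6% and 5.98% in pericyte-like cells and 14.4% and 7.22% in endothelial-like cells. Of 27 tested genes of collagen modification and processing, 15 higher and 0 lower were counted in fibroblast-like cells (median log2 fold change 2.23, against -0.12 over all genes tested), 16 higher and 0 lower in pericyte-like cells (2.13, against 0.00 over all genes tested) and 7 higher and 1 lower in endothelial-like cells (0.47, against -0.10 over all genes tested). The Ttr-led cluster had 14 higher and 1 lower, against 20.9% and 3.91% of all genes. At an unadjusted p under 0.05 edgeR had 0 lower in fibroblast-like and 0 lower in pericyte-like cells, and DESeq2 gave 13 higher and 0 lower in fibroblast-like and 15 higher and 0 lower in pericyte-like cells. Pcolce, which enhances procollagen cleavage, was at 550.0 and 984 CPM in fibroblast-like cells, against 254 and 268 CPM in pericyte-like cells (log2 fold change 1.21 ± 0.17 SE, with log2(CPM + 1) differences of 1.11 and 1.87, edgeR adjusted p = 2.7e-08), and at 1.32 and 0 CPM in endothelial-like cells. Lox, which crosslinks collagen, was at 91.2 and 35.1 CPM in fibroblast-like and 8.58 and 3.83 CPM in pericyte-like cells (edgeR adjusted p = 2.2e-06). Sparc, a collagen-binding protein, was at 1862 and 1951 CPM in pericyte-like cells, against 3811 and 3261 CPM in endothelial-like cells (log2 fold change -1.06 ± 0.28 SE, edgeR adjusted p = 0.00169).

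Of 24 tested matrix receptors, set against the same shares of all genes, 5 higher and 0 lower were counted in fibroblast-like cells, 15 higher and 2 lower in pericyte-like cells and 8 higher and 2 lower in endothelial-like cells. The Ttr-led cluster had 15 higher and 0 lower, against 20.9% and 3.91% of all genes. Astrocyte-like cells had 13 and 0, against 15.8% and 3.05%, and ependymal-like cells 11 and 2, against 27.4% and 7.69%. DESeq2 gave 13 and 0 in the Ttr-led cluster and 13 and 1 in astrocyte-like cells. The remaining classes had at most 8 higher. Itga1, a collagen receptor subunit, was at 27.3 and 0 CPM in fibroblast-like cells, against 1076 and 1105 CPM in pericyte-like cells (edgeR adjusted p = 1.4e-26). Itga6, a laminin receptor subunit, was at 13.1 and 23.0 CPM in pericyte-like cells, against 62.2 and 81.8 CPM in endothelial-like cells (edgeR adjusted p = 6.6e-10). Of 21 tested genes of matrix turnover the counts were 8 higher and 0 lower in fibroblast-like, 15 higher and 1 lower in pericyte-like and 7 higher and 2 lower in endothelial-like cells. Oligodendrocyte precursor-like cells had 10 higher and 1 lower, against 15.9% and 3.33% of all genes. Ependymal-like cells had 9 and 0, against 27.4% and 7.69%. Mmp9, a gelatinase, was at 72.7 and 199 CPM in pericyte-like cells, against 0 and 0 CPM in endothelial-like cells, and Mmp2, the other gelatinase, at 69.9 and 176 CPM in fibroblast-like cells, against 4.97 and 7.65 CPM in pericyte-like cells (edgeR adjusted p = 1.1e-08). Of 26 other matrix proteins tested, again beside 6.05%, 14.6% and 14.4% higher and 0.804%, 5.98% and 7.22% lower of all genes in the same order of classes, the counts were 15 higher and 0 lower in fibroblast-like, 12 higher and 4 lower in pericyte-like and 6 higher and 3 lower in endothelial-like cells. Beside their own shares given above, astrocyte-like cells had 14 higher and 2 lower, the Ttr-led cluster 13 and 1 and ependymal-like cells 13 and 1. For fibroblast-like cells, where these 3 lists had 0 lower genes, edgeR at an unadjusted p under 0.05 had 0 lower receptors, 0 lower turnover genes and 0 lower other proteins, and DESeq2 gave 5 higher and 0 lower receptors, 8 higher and 0 lower turnover genes and 14 higher and 0 lower other proteins. Egfl7, a secreted endothelial protein, was at 42.4 and 34.4 CPM in pericyte-like cells, against 1721 and 1826 CPM in endothelial-like cells.

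Of the 60 genes, 17 reached 20 CPM in both libraries of none of the 15 classes. Among them was Col8a1, which did so in the smooth muscle-like cells of the finer clustering. The low-count filter left out 13 genes, among them Col2a1, Col6a4, Col6a6, Col10a1, Col14a1, Col17a1, Col19a1, Col20a1, Col24a1, Col25a1, Lama3 and Lamb3. Col6a6, Col10a1 and Col17a1 had fewer than 10 UMIs each over all classes. At this depth low levels of these chains were not detectable in small classes.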

How the data were processed

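The authors deposited counts, as UMIs per gene and cell barcode without normalisation, made with Cell Ranger 6.1.2 and mm10 per the submitters' processing notes. No source used here states the annotation or the strand setting. The genes, lists and markers were chosen with earlier results of these data known. Cells needed 500 or more genes and 10% or less mitochondrial UMIs. Scrublet (scanpy 1.11.5, 6% expected) marked 626 cells of library 1 as doublets and 0 of library 2; in library 2 the 844 cells with the highest scores were removed in their place, a choice made after seeing the data. Clustering used counts scaled to 10000 per cell, 2000 variable genes without the 60 genes and the 4 context lists, 30 components, 15 neighbours and Leiden resolution 1. Names came from 18 marker lists and needed 3 markers at 2-fold and 20 CPM; the limits that left weak, shallow or tied clusters unnamed were set after seeing the data.

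UMIs were summed per class and library. The 15 classes with 5 cells or more in each library entered 1 edgeR 4.0.16 quasi-likelihood fit (TMM, filterByExpr) with class and library as terms, the library being a block because its classes share a cell suspension; 14 degrees of freedom remained. The 1055 genes used for clustering or as markers were not tested, leaving 13067. A call needed a Benjamini-Hochberg adjusted p under 0.05 over all genes, a log2 fold change of 1 or more in size, and the same sign of the log2(CPM + 1) difference in each library. In all, 19 comparisons were run. The SE is the size of the log2 fold change over the square root of F. Named genes were the called ones with the largest differences, up to 12 per comparison, and in the context lists up to 4 per direction; other members are described by level, chosen after their values were seen. DESeq2 1.42.0 was an alternative test, and the fit was tested on simulated data with genes changed in endothelial-like cells. Apart from these changes the simulated counts had the same mean in all classes, no library effect and a fixed spread. Real classes differed in many genes, so the rates hold for that setting only. Against the mean of the other classes the fit recovered 4 of 50 genes changed 2-fold and 36 of 50 changed 4-fold. It recovered 39 of 50 at 8-fold and 39 of 50 at 16-fold, with 6 false calls among 11540 unchanged genes. Genes without a call can therefore still differ. Shares of cells used exact binomial 95% intervals after thinning to 1500 UMIs, without shallower cells; a count of 0 allows up to 3 UMIs. All 60 genes matched GENCODE M21 by ID; 4 overlap another counted gene on the same strand and 20 on the other. RefSeq upstream windows were found for 43.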

Additional observations from a re-analysis of the deposited data

How the results depend on the processing

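Over 18 comparisons and 12 alternatives, 187 of 204 counts of called genes stayed within 1.5 times the reported count. With DESeq2 the counts were 11 in differentiating oligodendrocyte-like, 29 in Dlx-lineage neuron-like, 22 in excitatory neuron-like, 25 in microglia-like, 21 in neural progenitor-like and 24 in oligodendrocyte precursor-like cells, and 17 for pericyte-like against endothelial-like cells. A limit of 50 cells or more left out the fibroblast-like, monocyte or neutrophil-like, differentiating oligodendrocyte-like, Cajal-Retzius-like, border macrophage-like and ependymal-like classes. The counts were then 11 in Dlx-lineage neuron-like, 17 in excitatory neuron-like, 18 in microglia-like, 10 in neural progenitor-like and 17 in oligodendrocyte precursor-like cells. Of all 13225 genes tested there, 1844 were higher and 1690 lower in Dlx-lineage neuron-like and 2130 and 1674 in excitatory neuron-like cells. In microglia-like cells they were 2447 and 1971, in neural progenitor-like cells 1723 and 902 and in oligodendrocyte precursor-like cells 1988 and 669. With 20 cells or more, which left out the fibroblast-like and monocyte or neutrophil-like classes, the Dlx-lineage neuron-like count was 2. All 14027 genes tested gave 2242 higher and 1178 lower there. Results of fibroblast-like cells were not checked at either limit. A log2 threshold of 2 gave 1 in Dlx-lineage neuron-like, 5 in excitatory neuron-like and 1 in neural progenitor-like cells, and keeping doublets gave 8 in neural progenitor-like cells. At that threshold all 13067 genes gave 944 higher and 398 lower, 1178 and 496, and 735 and 162 in these 3 classes in order. With doublets kept, all 13873 genes gave 2011 higher and 479 lower in neural progenitor-like cells. The cause of the changed counts was not tested. Without the replicate block no count moved beyond 1.5 times; pericyte-like against endothelial-like cells gave 28 in place of 27.

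For 49 named gene differences, 489 of 498 refitted values kept their direction and side of the threshold, 9 lost the call and 0 reversed; the 9 are named beside their results. Leaving out either library gave no further check of the 49, since a call already required the same direction in each library. With DESeq2 size factors the median over all genes tested in ependymal-like cells moved by -0.12 on the log2 scale. Depth limits the fibroblast-like and smooth muscle-like classes of library 2 most, with 8 and 11 cells. No smooth muscle-like or choroid plexus epithelial-like class was named at the main resolution, so their comparisons with the other classes were not run. Thinned to 1000 UMIs in place of 1500, 7 of 10 shares of cells stayed within their 95% exact intervals; in library 1 the share with Col4a1 was 83.2% and with Col3a1 29.0% of pericyte-like cells, and with Col9a3 47.4% of differentiating oligodendrocyte-like cells.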
